A study of Mus musculus with 12 samples.

Results

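Leukocyte tetraspanins are a set of 8 genes, Cd9, Cd37, Cd53, Cd63, Cd81, Cd82, Cd151 and Tspan33, described here in leukaemic cells of mice with altered Gfi1. They were taken by name from a table of 41214 genes, and the set was picked because Cd9 RNA lay lower in KD than in KI leukaemia, so the KD to KI difference in these genes is a description and is given without a test. All 8 were found and all 8 passed the filter on low counts. The groups were KD (Gfi1 KD/KD, RNA libraries labelled homo, 2 mice) and KI (Gfi1 KI/wt, RNA libraries labelled het, 2 mice). Both genotypes are of the C57/BL6 strain and carry NUP98-HOXD13, a transgene that fuses a nuclear pore gene to a homeobox gene and drives myelodysplasia and acute myeloid leukaemia. No mouse without the transgene and no mouse with wild-type Gfi1 alone was compared, and the labels name the Gfi1 alleles without describing them or giving the age of the mice. Gfi1 encodes a zinc finger repressor that steers blood progenitors towards granulocytes.

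Tetraspanins are small proteins that cross the membrane several times and expose a large and a small loop on the outside. They gather integrins, receptors and proteases into membrane patches, and so act on adhesion, signalling and the sorting of cargo into endosomes and vesicles. In blood, CD37 and CD53 are largely restricted to leukocytes, CD9 and CD151 are prominent on platelets and megakaryocytes, CD63 marks late endosomes, lysosomes and granules, and TSPAN33 was described in erythroid progenitors.

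The libraries held 11934542 and 10263454 gene counts in KD replicates 1 and 2, and 4581593 and 10869534 in KI replicates 1 and 2. Values are raw counts and CPM, library-size-scaled counts with TMM factors, and 3 counts correspond to 0.212 to 0.259 CPM in KD and 0.356 to 0.696 CPM in KI. Gfi1 itself had 7.22 and 1.12 CPM in KD, against 36.2 and 89.0 CPM in KI. Reads in no gene were 67.4% and 63.2% of the unique alignments in KD, and 88.3% and 68.3% in KI. Genes of the olfactory, vomeronasal and taste receptor families, silent in blood, summed to 147 and 143 CPM in KD, and to 979 and 237 CPM in KI, so KI replicate 1 stands apart. Libraries were stranded, but which strand was counted is not stated, so counts may come from either. In edgeR's quasi-likelihood test over 13822 genes, 0 (0%) passed an adjusted p of 0.05, while 1331 had an unadjusted p under 0.05, DESeq2 called 142 and limma-voom called 0.

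The labelled cells were leukaemic and of no stated lineage, and myeloid genes dominated the marker lists. A list of 9 monocyte markers summed to 7195 and 5750 CPM in KD, against 6474 and 3313 CPM in KI. Most of this sum was Lyz2, with 4738 and 3381 CPM in KD, against 4756 and 2019 CPM in KI. All 9 had a positive fold change, and 5 lay wholly above KI in the KD mice, as did 14.5% of all genes. A list of 8 neutrophil markers summed to 3281 and 1437 CPM in KD, against 15039 and 16134 CPM in KI. The 11 erythroid markers summed to 67.4 and 3.46 CPM in KD, against 483.8 and 475.5 CPM in KI. In these bulk samples, fewer cells of a type and less RNA per cell cannot be told apart.

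The RNA of all 8 tetraspanins had a negative fitted fold change, with sizes from near 0 to over 3 on the log2 scale. Both KD libraries lay below both KI libraries for 4 of the 8 genes (Cd9, Cd37, Cd82 and Tspan33), where 23.5% of the 13822 genes did so and 38.0% lay apart in either direction. The genotypes overlapped for Cd53, Cd63, Cd81 and Cd151, and 0 of the 8 lay above both KI libraries in both KD mice. The median log2 fold change, KD over KI, was -0.93 over the 8 genes and -0.06 over all genes tested. These counts describe a set picked from this contrast and support nothing beyond it. When scaled by library size only, Cd53, Cd82 and Cd151 turned positive, to values below the 0.43 by which that setting moves the median of all genes.

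**Figure D1:**
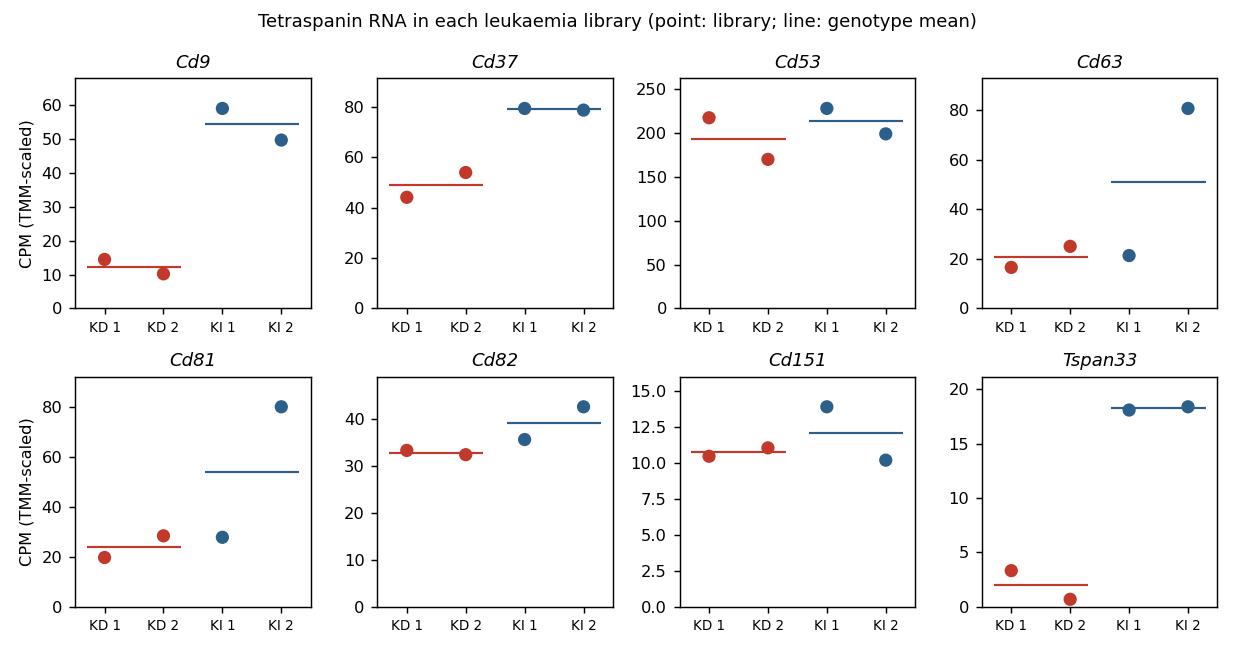
TMM-scaled CPM (vertical axes, each starting at 0) of the 8 tetraspanin genes in KD replicates 1 and 2 and KI replicates 1 and 2; points are libraries and lines are genotype means. Cd9 and Tspan33 lie well below the KI libraries in both KD libraries, Cd63 and Cd81 stand out in KI replicate 2, and Cd53, Cd82 and Cd151 lie close together in the 4 libraries.

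Cd9 encodes the tetraspanin through which the set was picked, a partner of integrins and of immunoglobulin-like proteins on platelets, B cell subsets and myeloid cells. Cd9 (ENSMUSG00000030342, GRCm38 chromosome 6, 125460266 to 125494760) had 204 and 118 counts in KD, against 254 and 418 counts in KI. Scaled, this came to 14.4 and 10.2 CPM in KD, against 58.9 and 49.6 CPM in KI. The genotypes did not overlap, and libraries of the same genotype lay close to each other. The mean was 12.3 ± 3.0 CPM in KD and 54.2 ± 6.59 CPM in KI (SD, n = 2 each), a KI to KD ratio of 4.41. The fitted log2 fold change was -2.14 ± 0.34 (SE).

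The fold change of Cd9 was negative in all 13 alternative fits, from -2.41 without KD replicate 1 to -1.72 with library size only. It was -1.86 when KI replicate 1, which stands apart, was left out. Megakaryocytes and platelets, on which CD9 is abundant, left few counts in most of their 10 markers. The 10 summed to 35.4 and 8.03 CPM in KD, against 46.6 and 17.2 CPM in KI, and the sums overlapped. Much of the sum in KD replicate 1 came from Itga2b, with 25.5 and 2.68 CPM in KD, against 13.0 and 6.29 CPM in KI. Of the 4 markers tested, 2 lay wholly below KI in the KD mice, as did 23.5% of all genes, and 2 overlapped. Fold changes were negative for 3 of these 4 and positive for Itga2b, with a median of -2.00. Platelet glycoprotein Gp9 had 0 counts in both KD libraries and 5 and 4 counts in KI, while Pf4, platelet factor, had 25 and 2 counts in KD and 4 and 3 counts in KI. The neutrophil sum moved in the same direction as Cd9: it was 21.0% and 9.22% of the KI mean in KD replicates 1 and 2, where Cd9 was 26.6% and 18.8%. Of the 8 neutrophil markers, 7 lay wholly below KI in the KD mice, as did 23.5% of all genes. Mmp8 overlapped, with 494 and 401 CPM in KD, against 551 and 381 CPM in KI. The 6 T cell markers summed to 11.9 and 17.4 CPM in KD, against 55.2 and 53.3 CPM in KI, and 3 of the 6 overlapped between genotypes. Without Cd3e, which had 37.3 CPM in KI replicate 2, this sum was 10.5 and 16.8 CPM in KD, against 48.9 and 16.02 CPM in KI. The 9 eosinophil, basophil and mast cell markers, of cells that also carry CD9, summed to 153.5 and 44.3 CPM in KD, against 51.5 and 37.3 CPM in KI, and the genotypes overlapped. Without Prg2 and Epx, eosinophil granule genes, this sum was 34.0 and 29.9 CPM in KD, against 46.8 and 35.5 CPM in KI. This remainder holds Il1rl1, named after its values were seen, with 2.34 and 1.73 CPM in KD, against 23.0 and 11.6 CPM in KI. Of the 7 markers tested, only Il1rl1 lay wholly below KI in the KD mice, as did 23.5% of all genes. Wholly above KI lay 3, as did 14.5% of all genes, and 3 overlapped. The part of such cells in the Cd9 difference was not tested.

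The genes most like Cd9 were chosen by the root mean square difference between log2 CPM values over the 4 libraries, each gene centred on its own mean, among 9635 named genes of at least 5 CPM. The 5 nearest were Clcn2 (0.10), a chloride channel, Optn (0.12), the autophagy receptor optineurin, Ly75 (0.13), the endocytic receptor DEC-205, Scml4 (0.18), a polycomb-related gene, and Rab37 (0.19), a small GTPase of vesicle traffic. Ly75, the nearest of them in level, had 14.6 and 8.29 CPM in KD, against 60.5 and 45.8 CPM in KI. With 4 libraries many genes share such a profile. No other tetraspanin of the set was among the closest: Tspan33 ranked 434, Cd37 ranked 466 and Cd63 ranked 1879.

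Tspan33 had the lowest fitted fold change of the set. It belongs to the TspanC8 group, tetraspanins that escort the protease ADAM10 to the cell surface, and was described in mouse erythroid progenitors under the name Penumbra. Tspan33 (ENSMUSG00000001763, chromosome 6, 29694214 to 29718558) had 47 and 8 counts in KD, against 78 and 155 counts in KI. Scaled, it had 3.33 and 0.69 CPM in KD, against 18.1 and 18.4 CPM in KI. The KI libraries were nearly equal, both KD libraries lay far below them, and KD replicate 2 was lower than KD replicate 1 by a ratio of 4.81.

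The mean of Tspan33 was 2.01 ± 1.86 CPM in KD and 18.2 ± 0.21 CPM in KI (SD, n = 2 each), with a log2 fold change of -3.16 ± 0.79 (SE). It was -4.69 without KD replicate 1 and -2.45 without KD replicate 2. The erythroid markers were likewise lowest in KD replicate 2. In KD replicates 1 and 2, Tspan33 stood at 18.2% and 3.79% of its KI mean and the erythroid sum at 14.1% and 0.72%. The neutrophil sum stood at 21.0% and 9.22%, so this order of the KD libraries was not particular to the erythroid markers. For all 11 erythroid markers the KD mice lay below the KI mice without overlap, as they did for 23.5% of all genes. Slc4a1, the red cell anion exchanger, had 21.7 and 0.69 CPM in KD, against 142.2 and 108.6 CPM in KI. The part of erythroid or neutrophil cells in the Tspan33 difference was not tested.

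**Figure D2:**
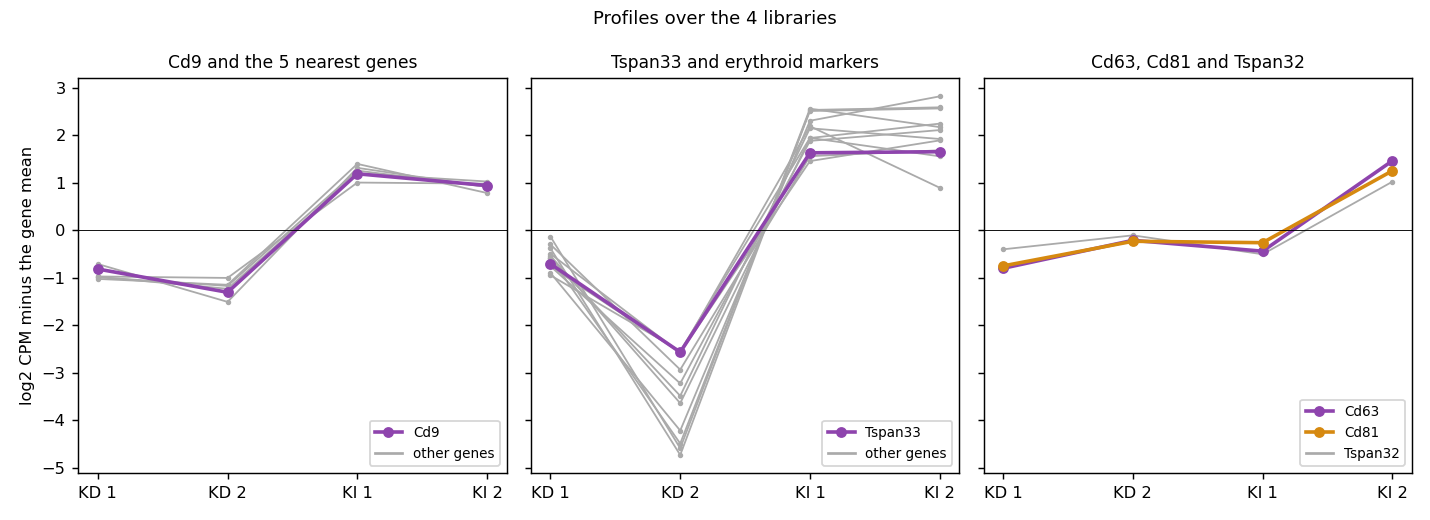
Log2 CPM minus each gene's mean (vertical axis) in KD replicates 1 and 2 and KI replicates 1 and 2, for Cd9 with its 5 nearest genes, Tspan33 with the 11 erythroid markers, and Cd63 and Cd81 with Tspan32; lines join the values of a gene and imply no order of the libraries. Tspan33 and the erythroid markers share their lowest value in KD replicate 2, and Cd63, Cd81 and Tspan32 share their highest in KI replicate 2.

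Cd63 and Cd81 formed the closest pair of the set, at a root mean square difference of 0.14, and were high in a single library. CD63 is a protein of late endosomes and secretory granules and a common exosome marker. CD81 acts in B cell signalling and is found on many other cells. Cd63 (ENSMUSG00000025351, chromosome 10, 128896231 to 128912822) had 16.6 and 25.1 CPM in KD, against 21.3 and 80.7 CPM in KI. Cd81 (ENSMUSG00000037706, chromosome 7, 143052750 to 143067930) had 19.7 and 28.4 CPM in KD, against 27.8 and 80.1 CPM in KI. KI replicate 1 lay within the KD range for both genes, and KI replicate 2 was 3.78 times KI replicate 1 for Cd63 and 2.88 times for Cd81.

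The counts behind these values were 234 and 290 in KD against 92 and 680 in KI for Cd63, and 279 and 329 in KD against 120 and 675 in KI for Cd81. The log2 fold changes were -1.30 ± 0.65 for Cd63 and -1.17 ± 0.55 for Cd81 (SE), and both rest on KI replicate 2: without it they were 0.018 and -0.15. Tspan32, a tetraspanin of blood cells, shared this profile, with 33.7 and 41.4 CPM in KD against 31.3 and 90.9 CPM in KI, at a distance of 0.25 from Cd81. Tspan32 lies on chromosome 7, 33.3 kb from Cd81, whereas Cd63 lies on chromosome 10. Of 13 late endosome and exosome genes, 6 also had their highest value in KI replicate 2, and 8 had their lowest in KI replicate 1, which stands apart. The share of all genes that did so was not counted. The ratio of KI replicate 2 to KI replicate 1 ran from 0.13 to 2.12 over the 13. Lamp1, a lysosomal membrane protein, had 533 and 667 CPM in KD against 328 and 380 CPM in KI, and Sdcbp, the exosome adaptor syntenin, had 156 and 160 CPM in KD against 183 and 140 CPM in KI.

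Cd37 differed by less than Cd9 but with little spread. CD37 is a leukocyte tetraspanin best known from B cells. Cd37 (ENSMUSG00000030798, chromosome 7, 45233632 to 45239340) had 44.1 and 53.9 CPM in KD, against 79.3 and 78.7 CPM in KI, from 623 and 624 counts in KD and 342 and 663 counts in KI. The genotypes did not overlap, and the log2 fold change was -0.69 ± 0.27 (SE), or -0.27 with library size only. B cell markers were low: Pax5, the B cell identity factor, had 4 and 0 counts in KD and 6 and 7 counts in KI. The 7 B cell markers together summed to 19.2 and 23.6 CPM in KD, against 45.5 and 32.5 CPM in KI. In this sum Cd79b had 13.1 and 16.8 CPM in KD and 10.4 and 28.1 CPM in KI. Of the 7 markers 4 were tested, and all 4 overlapped between genotypes.

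Cd53, Cd82 and Cd151 had log2 fold changes between -0.25 and -0.14. CD53 is found on nearly all leukocytes. CD82, also called KAI1, is known as a suppressor of metastasis, and CD151 is the main tetraspanin partner of laminin-binding integrins. Cd53 (ENSMUSG00000040747, chromosome 3, 106758861 to 106790149) had 218 and 170 CPM in KD, against 228 and 199 CPM in KI, and the genotypes overlapped. Cd82 (ENSMUSG00000027215, chromosome 2, 93419102 to 93462950) had 33.4 and 32.5 CPM in KD, against 35.7 and 42.7 CPM in KI, and the genotypes were separated by a narrow gap. Cd151 (ENSMUSG00000025510, chromosome 7, 141467362 to 141471481) had 10.5 and 11.1 CPM in KD, against 13.9 and 10.2 CPM in KI, and the genotypes overlapped.

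The log2 fold changes were -0.14 ± 0.29 for Cd53, -0.25 ± 0.29 for Cd82 and -0.16 ± 0.41 for Cd151 (SE), each smaller than its standard error. Without KI replicate 1, Cd53 and Cd151 lay at 0.10 and 0.21. Cd53 with Cd151 and Cd53 with Cd82 were, after Cd63 with Cd81, the closest pairs of the set, at 0.17 and 0.20. Tspan33 and Cd151 were the farthest apart, at 1.72.

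The rest of the tetraspanin family showed no common direction. Of 23 other tetraspanin genes, 14 passed the filter on low counts, and the 9 that did not include the bladder uroplakins Upk1a and Upk1b and the retinal Prph2. In edgeR's quasi-likelihood test 0 of the 14 passed in either direction, with a lowest adjusted p of 0.518. Fold changes were positive for 7 and negative for 7, with a median of -0.32, and the KD mice lay wholly above the KI mice for 4 and wholly below for 5, as for 14.5% and 23.5% of all genes. The 6 with the highest CPM were Tspan14, Tspan32, Tspan5, Tspan31, Tspan13 and Tspan4. Tspan14 had 110 and 84.6 CPM in KD, against 65.9 and 47.8 CPM in KI (log2 0.78 ± 0.31, SE), and Tspan31 had 29.4 and 40.7 CPM in KD, against 19.5 and 18.4 CPM in KI (0.89 ± 0.33). Tspan5 had 31.4 and 35.3 CPM in KD, against 18.1 and 45.0 CPM in KI, with overlapping genotypes. Tspan13 and Tspan4, at 0.70 ± 0.97 and 0.21 ± 0.61, were uneven within genotypes, Tspan13 with 21.5 and 3.28 CPM in KD against 11.4 and 4.15 CPM in KI, and Tspan4 with 6.65 and 14.9 CPM in KD against 6.03 and 12.3 CPM in KI.

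Other genes of the TspanC8 group had fold changes of either sign. Tspan14 and Tspan5 had fold changes of 0.78 and 0.07 and Tspan17, named after its values were seen, 0.73 ± 0.62 (SE), while Tspan15, also named so, lay at -2.77 ± 1.09 on 6 and 1 counts in KD and 5 and 21 counts in KI. Adam10, the protease these tetraspanins escort, had 128 and 100 CPM in KD, against 87.0 and 59.1 CPM in KI (0.65 ± 0.32, adjusted p = 0.579 in edgeR). The difference between Tspan33 and these genes was not tested.

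**Figure D3:**
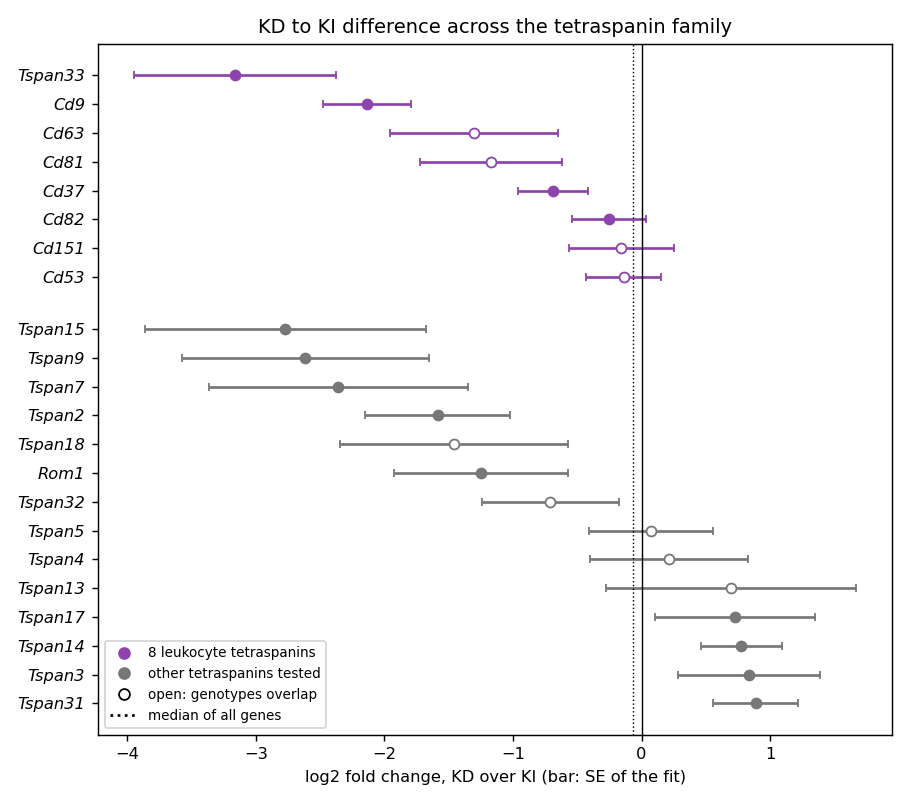
Log2 fold change of KD over KI (horizontal axis) with the standard error of the fit as bars, for the 8 leukocyte tetraspanins and the 14 other tetraspanins tested; filled points mark genes whose KD and KI libraries do not overlap, and the dotted line is the median of all genes. The 8 genes, picked from this contrast, lie between -3.16 and -0.14, and the others between -2.77 and 0.89.

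RNA of genes whose proteins bind tetraspanins lay on both sides of 0. Of 20 partner genes, 14 were tested, 0 passed edgeR's test in either direction, 11 fold changes were positive and 3 negative, and the median was 0.47. Of the 14, 4 lay wholly above KI in the KD mice, as did 14.5% of all genes, and 2 wholly below, as did 23.5% of all genes. These 2 were Kit and Cd4, the T helper coreceptor, named after its values were seen, which had 0.50 and 1.04 CPM in KD against 5.33 and 2.02 CPM in KI. Itgb1, the integrin beta subunit shared by most tetraspanin-bound integrins, had 172 and 160 CPM in KD, against 151 and 134 CPM in KI (0.22 ± 0.26, SE; adjusted p = 0.921). Itga4, its alpha partner on leukocytes, had 622 and 311 CPM in KD, against 510 and 145 CPM in KI, and Clec7a, the receptor dectin-1 that CD37 binds, had 120 and 50.5 CPM in KD, against 108 and 20.5 CPM in KI. Both vary more within a genotype than between genotypes. Kit, the stem cell factor receptor, reported with CD9, CD63 and CD81 in human cells, had 34.1 and 27.0 CPM in KD against 55.2 and 52.7 CPM in KI (-0.82 ± 0.29; adjusted p = 0.518). Of 13 exosome and late endosome genes 0 passed and the median was 0.01. Besides Lamp1 (0.76 ± 0.32) and Sdcbp, Lamp2 had 297 and 210 CPM in KD, against 223 and 124 CPM in KI, and Rab27a, a GTPase of granule and exosome release, had 165 and 212 CPM in KD, against 138 and 219 CPM in KI.

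The 8 genes lie on 5 chromosomes, with Cd37, Cd151 and Cd81 on chromosome 7 and Tspan33 and Cd9 95742 kb apart on chromosome 6. Some have another tetraspanin as a close neighbour: Cd151 lies 3.755 kb from Tspan4 and Cd82 lies 84.6 kb from Tspan18. Neighbours did not share a profile as closely as Cd81 and Tspan32, since the distances were 0.65 for Cd151 with Tspan4 and 0.95 for Cd82 with Tspan18.

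The stretches of 250 bases before the RefSeq starts of Cd9 and Tspan33, the members with the lowest fold changes, are shown because the genotypes differ in Gfi1, whose sites have the core AATC. They are from GRCm38.p6, chr6:125494761-125495010 on the minus strand for Cd9 and chr6:29693964-29694213 on the plus strand for Tspan33, written 5′ to 3′ in lower case, with AATC on either strand (GATT on the printed one) in capitals.
Cd9: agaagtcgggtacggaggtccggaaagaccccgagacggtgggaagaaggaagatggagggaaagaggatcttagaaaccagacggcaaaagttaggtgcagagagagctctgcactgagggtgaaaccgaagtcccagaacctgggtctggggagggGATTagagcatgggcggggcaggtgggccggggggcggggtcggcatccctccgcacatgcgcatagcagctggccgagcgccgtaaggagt
Tspan33: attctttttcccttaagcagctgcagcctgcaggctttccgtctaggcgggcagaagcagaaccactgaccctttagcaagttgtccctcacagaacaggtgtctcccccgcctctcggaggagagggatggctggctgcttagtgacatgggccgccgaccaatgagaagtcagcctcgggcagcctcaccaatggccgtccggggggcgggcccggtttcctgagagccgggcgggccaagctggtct
Cd9 held 1 match and Tspan33 held 0. Of the 8 genes, Cd9, Cd53, Cd63, Cd81 and Cd82 had at least 1 match in the window of their first listed start, while 69.8% of 27025 promoters did. The windows of Cd63 (128909095 to 128909344) and Cd37 (45238840 to 45239089) lie inside the gene spans given above. Cd82 and Cd151 have 4 and 2 listed starts, of which only the first was used. The longer AAATCAC, which contains the same core, was found in 2.71% of promoters. AGATAA, 1 form of the sites for the erythroid factor GATA1, was found in 10.3%. These 2 were searched on both strands and matched in 0 of the 8. Other forms of GATA1 sites were not searched. The guanine and cytosine content was 61.6% for Cd9 and 62.4% for Tspan33, and ran from 45.2% (Cd53) to 65.6% (Cd81), against a median of 52.0% over all promoters. A match is a run of letters in this window, not a bound site.

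**Figure D4:**
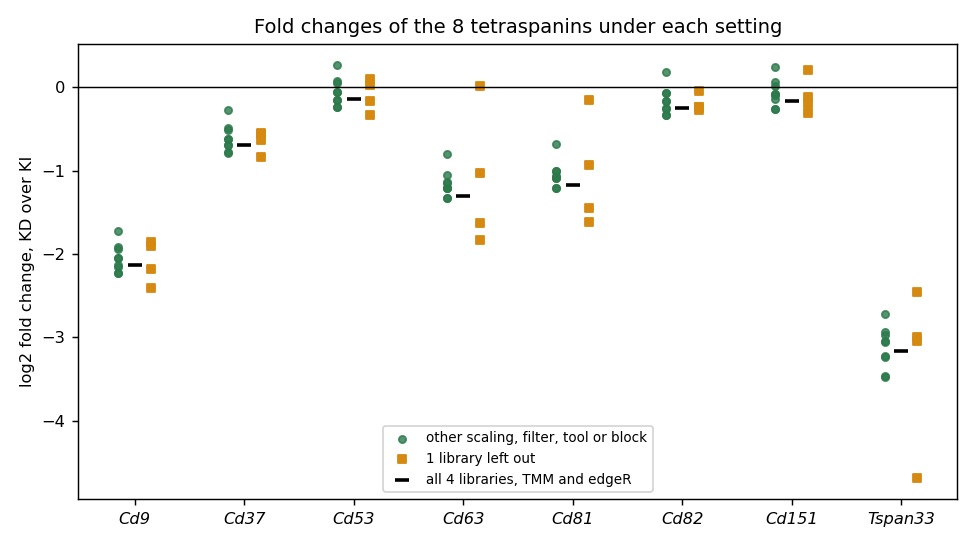
Log2 fold change of KD over KI (vertical axis) of each of the 8 tetraspanin genes with all 4 libraries (black bars), under other scalings, filters, tools and the replicate block (circles), and with 1 library left out (squares). Cd9, Cd37, Cd81 and Tspan33 stay below 0 in all of these. Without KI replicate 2, Cd81 lies at -0.15 and Cd63 reaches 0.018. Cd53 and Cd151 lie on both sides of 0, and Cd82 is above 0 with library size only.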

How the data were processed

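RNA was sequenced from TruSeq Stranded mRNA libraries of leukaemic cells of 4 mice. The authors deposited raw counts per Ensembl gene (41214 genes, 40254 with a symbol here), and the submitters' processing notes list HTSeq, TopHat2 2.0.10, DESeq and SAMtools with GRCm38. Strand setting, annotation release and filters were not given in the sources used here. Entries that name no gene held 93.2% to 97.9% of each file's total and were left out. Reads with several alignments entered no gene count, and RefSeq lists a pseudogene each for Cd9 and Cd63, so their counts may be low. The 8 chromatin libraries were not used, since the 1616 columns of their tables name neither antibody nor mouse.

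The filterByExpr function of edgeR 4.0.16 (R 4.3.3) kept 13822 genes, which were scaled by TMM and tested with glmQLFit and glmQLFTest on genotype alone, with Benjamini-Hochberg adjustment at 0.05. Standard errors are the fold change divided by the root of the F statistic. P-values set the genotype difference against the spread between the 2 mice of each genotype, drawn towards that of other genes. The fit was also run on simulated counts drawn with its own estimated spread, which cannot show whether it suits these libraries. Alternatives used DESeq2 1.42.0, limma-voom (3.58.1), other scalings and filters, a replicate block and left-out libraries. Left-out fits kept the same 13822 genes. The members, lists and tests were chosen with earlier results of these data known. All members were named, as were the 6, 5 and 4 genes of highest mean CPM among other tetraspanins, partners and exosome genes, and the 5 genes most like Cd9 (log2 CPM with prior count 3).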

Additional observations from a re-analysis of the deposited data

How the results depend on the processing

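The 28 named genes were refitted in 13 settings. Genes called between KD and KI numbered 0 with all 4 libraries, TMM and edgeR, 169 without a low-count filter (30472 genes tested), 142 with DESeq2 and 7 with the replicate number as a block, and 39 to 787 with 1 library left out. Same-numbered libraries deviated together with a correlation of 0.25 across genes, but the labels do not say that the numbers pair the mice. Leaving out a library leaves a lone mouse whose spread is assumed to equal that of the other genotype. The fold change of Cd9 was -2.15 with the block, -1.72 with library size only and -2.41 to -1.86 with 1 library left out. The median of all genes moved by 0.43 with library size only, by -0.69 with no filter and by 0.17 with 3 satellite-like loci left out, which held 19.4% and 21.2% of gene counts in KD and 39.0% and 44.4% in KI.

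Signs turned for Cd53 (0.27 with library size only, 0.074 without a filter, 0.049 without satellite-like loci), Cd82 (0.18 with library size only), Cd151 (0.24, 0.070 and 0.019 in the same order as Cd53) and Sdcbp (0.045 with RLE scaling, 0.37 with library size only, 0.20 without a filter, 0.046 with DESeq2 and 0.15 without satellite-like loci). With 1 library left out the range was -0.33 to 0.10 for Cd53, -1.83 to 0.018 for Cd63, -0.30 to 0.21 for Cd151, -0.47 to 0.88 for Tspan4, -0.30 to 0.95 for Tspan5, -1.23 to 1.76 for Tspan13, -1.15 to 0.32 for Tspan32, -0.073 to 1.84 for Itga4, -0.35 to 2.21 for Clec7a, -0.14 to 0.31 for Sdcbp and -0.12 to 0.51 for Rab27a. The cause was not tested. The count of tetraspanins lower in every KD library, an alternative chosen after seeing the data, was 3 to 6 instead of 4, while the share of all genes that did so ran from 12.8% with library size only, where 3 did, to 40% without KI replicate 1, where 6 did. Depth limits Tspan33, with 8 counts in KD replicate 2.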
